A study of Rattus norvegicus with 6 samples.

Results

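The guanylate-binding proteins Gbp1, Gbp2, Gbp4 and Gbp5 and the immunity-related GTPases Igtp, Irgm and Ifi47 were followed in rat atrial fibroblasts after transfection of a small interfering RNA (siRNA) against Gpd1l. These 7 genes were taken by their symbols from the 40154 rows of the gene table, and all 7 passed the filter on low counts that left 14852 genes to be tested. Primary fibroblasts had been separated by preplating from the atria of Sprague-Dawley rats aged 1 to 3 days, and their RNA was sequenced 24 h after transfection, through its polyA tail. One group received the negative-control siRNA (si-NC, n = 3 libraries) and the other the siRNA against Gpd1l (si-GPD1L, n = 3 libraries), with "Atrial differentiation" given as the treatment of both. Hearts may have been digested together, in which case a library holds cells of several pups, and nothing states that the libraries came from separate cultures or animals. The p-values therefore measure the spread between these libraries, which may be technical. It is not stated whether the final digit of a name such as si-GPD1L2 numbers a replicate or a different siRNA, and it is read here as a replicate. Every library was transfected, and untransfected cells were not analysed here.

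Both families belong to the cell-autonomous defence that interferons switch on. Guanylate-binding proteins (GBPs) are large GTPases related to dynamin, which assemble on the membranes of intracellular bacteria and of the vacuoles that hold parasites, and which promote inflammasome activation. Immunity-related GTPases (IRGs) are smaller. Regulatory members such as Irgm and Igtp sit on the cell's own membranes and keep effector members such as Ifi47 inactive there, so that effectors load onto the vacuole of a pathogen instead. Transcription of these genes is driven by interferon regulatory factors and their partners at the interferon-stimulated response element (ISRE), and by STAT factors at the gamma-activated site (GAS).

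In si-NC fibroblasts the members were weakly expressed, and all 7 were higher in si-GPD1L fibroblasts, by 4.84-fold (Igtp) to 30.7-fold (Gbp1). All 7 passed an adjusted p-value under 0.05 with a log2 fold change over 1, against 1.48% of all genes tested that did so in this direction and 1.62% in either direction. Gbp1 and Gbp4 had too few si-NC counts to pass the filter without si-GPD1L, so their place among genes tested presupposes a high si-GPD1L level. With 10 counts required in every library, the other 5 members were tested and all 5 were called. In all 7 the lowest si-GPD1L library stood above the highest si-NC library, which was true of 15.1% of all genes tested, while 29.0% had separate groups in either direction. The median log2 fold change was 3.85 over the members and -0.0049 over all genes tested. In bulk RNA a change in the number of cells of a type cannot be told apart from a change in RNA per cell.

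The promoter letters of the members are shown because both kinds of interferon element can be read in them directly. Sequences are from RefSeq, rat assembly GRCr8, in windows of 250 bases before to 50 bases after an annotated start. All 7 genes were matched by gene identifier, with 8 promoters because Gbp1 has more than 1 start. The ISRE was searched on both strands as GAAA, any 2 bases and GAAA again, and the GAS as TTCNNNGAA, which is its own reverse complement. Matches of one motif may overlap each other. Runs are written 5′ to 3′ on the strand of the gene, and capitals mark the matching letters. A run of TTTC blocks is the ISRE on the opposite strand. Gbp1 holds 3 ISRE matches before its second start, and the 2 nearer ones overlap and are capitalised together in its second run. Gbp2, Gbp4 and Gbp5 hold 1 ISRE match each:
Gbp1, chr2:234072197-234072226, plus strand: gtcagaaggaGAAACTGAAAggaacatgga
Gbp1, chr2:234072291-234072320, plus strand: tgagGAAAAAGAAACTGAAActcaggagag
Gbp2, chr2:234005686-234005715, plus strand: agttttttagTTTCACTTTCattgtcttaa
Gbp4, chr2:233978456-233978485, plus strand: tcatctggcaagaagcagggTTTCGATTTC
Gbp5, chr2:233910933-233910962, plus strand: acttgtgtagTTTCAATTTCagtttagagg

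The IRG members differ from the GBP members in these letters, as no GBP member held a GAS match. GAS letters are not confined to IRGs, since LOC685067, which RefSeq names Gbp7, holds both GAS and ISRE matches. MGC108823, an IRG-like gene, holds both motifs too. Igtp and Irgm each hold a GAS match followed, after 2 bases, by an ISRE match, and Ifi47 holds GAS matches and no ISRE match in its window:
Igtp, chr10:42874929-42874957, plus strand: tcacTTCCAGGAAccGAAACTGAAAgcag
Irgm, chr10:33742599-33742627, minus strand: tcgtTTCAAGGAAtaGAAACTGAAAccga
Ifi47, chr10:33798522-33798551, plus strand: atcctttggcTTCAGAGAActcattccccc
Ifi47, chr10:33798638-33798667, plus strand: tgaaatcattTTCCTGGAAatgtttatgcc

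ISRE letters stood in 6 of the 8 promoters of the members (75.0%), against 3.92% of all 33469 promoters and 3.03% of the 12623 promoters of genes tested. Among the 156 promoters of genes called higher in si-GPD1L, which include the members, 32.7% held them. GAS letters stood in 3 of the 8 promoters (37.5%), against 8.87% of all promoters and 15.4% of those of the genes called higher. The ISRE match of Gbp4 lay closest to its start, from base -10 to base -1, and that of Gbp1 farthest, from base -230 to base -221 before the second start. The window of the first Gbp1 start held neither motif. A match of letters does not show that a factor was bound.

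**Figure D1:**
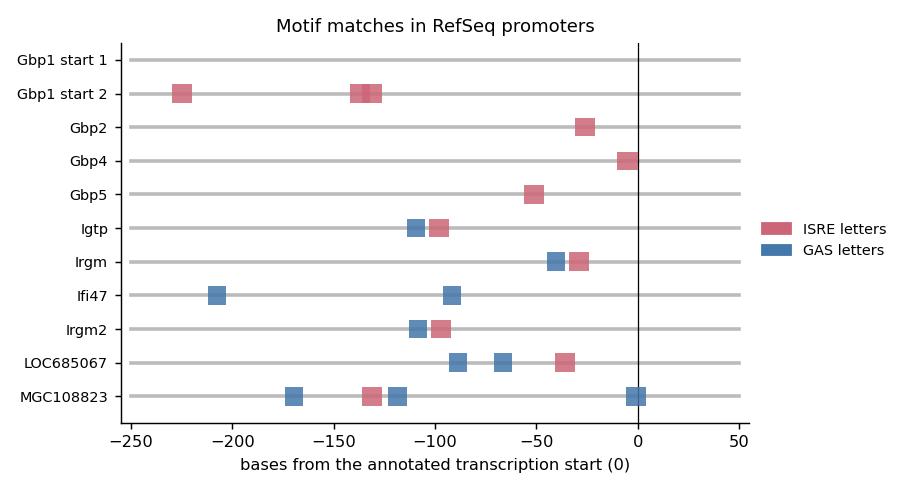
Positions of ISRE and GAS letters in the RefSeq promoters of the 7 members and of Irgm2, LOC685067 and MGC108823, relatives described further on, in bases from the annotated start, with 1 line for each promoter. ISRE letters are in 6 of the 8 member promoters, all before the start, and Ifi47 has GAS letters only.

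The library sizes and the cells bear on every value that follows. Library totals ran from 16892255 to 20149732 counts, and the scaling factors of TMM, edgeR's normalization, from 0.9938 to 1.01. Gpd1l itself, the siRNA's target, had 262, 332 and 313 normalized counts in si-NC replicates 1, 2 and 3 and 220, 208 and 302 in si-GPD1L. The means were 302 ± 36.3 (SD, n = 3) and 244 ± 51.3, the log2 fold change was -0.31 (SE 0.15), and the adjusted p-value of edgeR's quasi-likelihood test was 0.234. The library labelled si-GPD1L replicate 3 lay within the range of si-NC for Gpd1l, so its label was not borne out by the target's transcript. Markers of fibroblasts summed to 29274 to 39451 TPM (transcripts per length, scaled to a fixed total in each library) in the si-NC group and 36370 to 39703 in the si-GPD1L group. That sum rests mostly on collagen transcripts, and 2 of 9 fibroblast markers were lower, Dcn (log2 fold change -0.66, adjusted p-value 0.0129 in edgeR's quasi-likelihood test) and Lum (-0.77, adjusted p-value 0.0058). Of 7 smooth muscle and pericyte markers, Cspg4 was higher (0.80, adjusted p-value 0.0013) and Des lower (-0.35, adjusted p-value 0.0282). Cardiomyocyte markers summed to 2621 to 2732 and 2401 to 2573. Of 10 endothelial markers tested, 4 were higher at an adjusted p-value under 0.05, against 4.03% of all genes tested (up to a log2 fold change of 1.44, Plvap), and their sum was 40.8 to 53.2 TPM across si-NC and 66.5 to 72.5 across si-GPD1L. None of the endothelial markers was at 0. The part of these cell types in the members' values was not tested.

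Gbp1, the founding member of the GBP family, had 9.89, 7.41 and 10.7 normalized counts in si-NC replicates 1, 2 and 3, and 246, 349.9 and 277 in si-GPD1L. A normalized count is a count scaled by the TMM size of its library to the mean library. Every si-GPD1L library stood far above every si-NC library. The means were 9.34 ± 1.73 and 291 ± 53.1 (SD, n = 3 each), with a log2 fold change of 4.94 (SE 0.23, 95% confidence interval 4.45 to 5.43), or 30.7-fold, and an adjusted p-value of 9.61e-09 in edgeR's quasi-likelihood test. Gbp4 was lower still at the start, with raw counts of 5, 2 and 2 across si-NC and of 70, 115 and 66 across si-GPD1L. These few si-NC counts leave its fold change loosely fixed. The log2 fold change was 4.72 (SE 0.38, 95% confidence interval 3.89 to 5.54, adjusted p-value 4.08e-06 in the same test), and the ratio of the summed counts, 251 against 9, was 27.5 after scaling, with an exact counting interval of 14.3 to 60.9 that covers counting error only.

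Gbp2, which carries a lipid anchor through a C-terminal prenylation motif, gave 67.2, 71.9 and 58.6 normalized counts in si-NC and 986, 1151 and 938 in si-GPD1L. It reached the highest level of the 4 GBPs in both groups. The means were 65.9 ± 6.79 and 1025 ± 112 (SD, n = 3 each), a log2 fold change of 3.96 (SE 0.12, adjusted p-value 2.62e-10 in edgeR's quasi-likelihood test), or 15.6-fold (95% confidence interval 12.9 to 18.7). Gbp5, known to promote assembly of the NLRP3 inflammasome, gave 46.5, 31.7 and 37.1 normalized counts in si-NC and 443, 483 and 449 in si-GPD1L. Its 3 si-GPD1L libraries were the closest together of any member, with a coefficient of variation of 4.79%. The log2 fold change was 3.57 (SE 0.14, 95% confidence interval 3.26 to 3.87, adjusted p-value 2.18e-09 in the same test), or 11.9-fold.

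Among the 3 IRG members Ifi47, the only effector gene of them, rose most. Irgm2, a regulatory IRG outside the members, had a log2 fold change of 3.50 (95% confidence interval 3.31 to 3.69). That interval overlaps the one of Ifi47. Ifi47, also known as Irg47, had 23.7, 21.2 and 29.3 normalized counts in si-NC and 309, 387 and 382 in si-GPD1L. Its 2 groups stood more than 10-fold apart in every si-GPD1L library, and the log2 fold change was 3.85 (SE 0.17, 95% confidence interval 3.49 to 4.22, adjusted p-value 6.42e-09 in edgeR's quasi-likelihood test), or 14.4-fold. The regulatory members had the higher levels in si-NC. Irgm had 108.8, 103.7 and 110.3 normalized counts in si-NC and 697, 799 and 663 in si-GPD1L. This gave a log2 fold change of 2.74 (SE 0.11, 95% confidence interval 2.50 to 2.98, adjusted p-value 2.54e-09), or 6.68-fold. Igtp, also known as Irgm3, had 125.6, 139.7 and 128.8 in si-NC and 587, 705 and 613 in si-GPD1L, which gave a log2 fold change of 2.27 (SE 0.11, 95% confidence interval 2.04 to 2.51, adjusted p-value 1.56e-08), or 4.84-fold. The confidence intervals of Irgm and Igtp lay below those of the other 5 members.

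**Figure D2:**
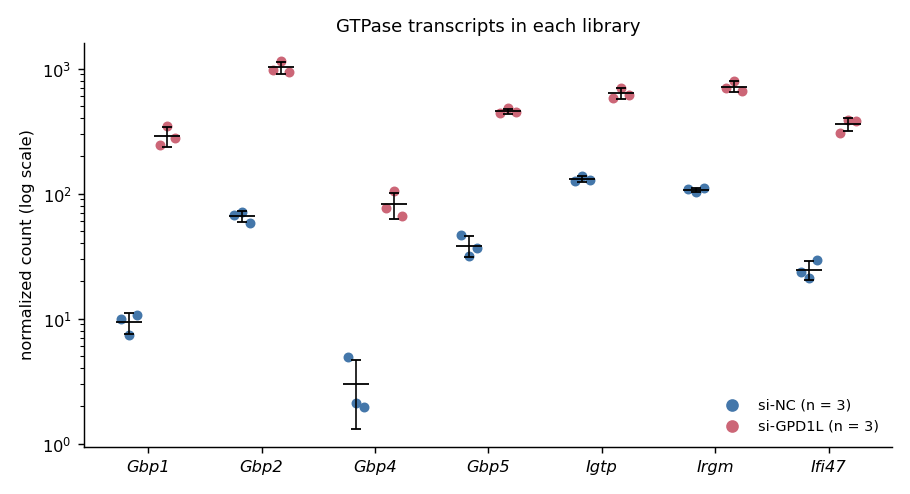
Normalized counts of the 7 members on a log scale, with 1 point for each of the 3 si-NC and 3 si-GPD1L libraries a line at the mean of each group and error bars for the SD. The si-GPD1L libraries are above the si-NC libraries for every member, and the distance is smallest for Igtp and Irgm.

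Within si-GPD1L, replicate 2 was the highest library for 7 of the 7 members, while replicate 1 was the lowest for 4 and replicate 3 for 3. The median over the members of the fold over the si-NC mean was 12.5 in replicate 1, 15.7 in replicate 2 and 14.2 in replicate 3. The same libraries had 220, 208 and 302 normalized counts of Gpd1l, so that the library with the highest Gpd1l had the middle of the 3 median folds. Leaving out any one library, replicate 3 of si-GPD1L included, kept all 7 members past both thresholds.

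Per length of transcript, the regulatory IRGs led in si-NC. Igtp had 7.64 ± 0.69 TPM (SD, n = 3) and Irgm 5.85 ± 0.32, followed by Gbp2 with 3.52 ± 0.36. Gbp5 (1.77) and Ifi47 (1.69) had ranges that overlapped, and Ifi47 was above Gbp5 in replicate 3. Gbp1 (0.330) and Gbp4 (0.135) were the lowest. All other neighbours in this order had ranges that did not overlap. Among all genes tested, Gbp4 stood at the percentile 0.451 of the TPM level and Igtp at 37.3. The low place of Gbp4 partly reflects the filter, which a gene so low in si-NC passed only through si-GPD1L.

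In si-GPD1L the order changed, and Gbp2 led with 58.05 ± 6.56 TPM. Irgm (41.4) and Igtp (39.1) followed, with overlapping ranges although Irgm was above Igtp in 3 of 3 libraries, and the same held for Ifi47 (26.0) above Gbp5 (22.5). Gbp1 (10.9) and Gbp4 (3.99) stayed last. Gbp2 moved from the percentile 25.5 to 81.1 among all genes tested, Ifi47 from 16.4 to 63.1 and Gbp1 from 2.53 to 42.6. The si-NC percentile of Gbp1 carries the same limit of the filter as that of Gbp4. The 7 members summed to 19.99, 21.3 and 21.5 TPM across si-NC and to 187.7, 225.6 and 192.6 across si-GPD1L. GBPs made up 25.5% to 29.9% of that sum across si-NC and 46.1% to 47.8% across si-GPD1L. These shares hold for the 7 members only. The sum leaves out relatives such as Irgm2 (80.8 TPM in si-GPD1L) and the Gbp6-like LOC102554096 (25.3 TPM in si-NC).

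**Figure D3:**
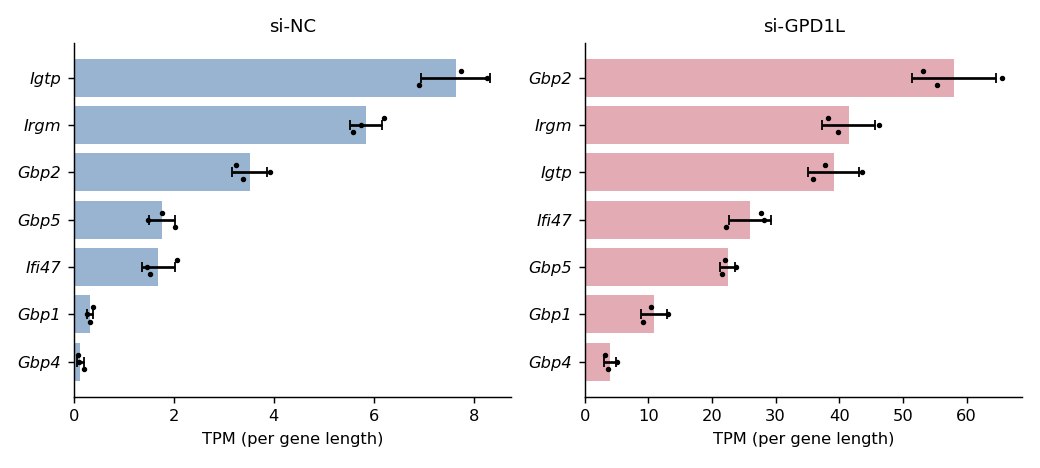
TPM levels of the 7 members in si-NC (left) and si-GPD1L (right), on linear axes of different range, with bars at the mean, error bars for the SD and points for the 3 libraries. Igtp is highest in si-NC with a mean of 7.64 TPM, and Gbp2 is highest in si-GPD1L with a mean of 58.05 TPM.

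The GBP members lie in one run on chromosome 2 of the rn6 assembly, the build of the deposited positions. From Gbp5 at chr2:248178441-248196873 through Gbp4 at chr2:248249232-248263104 and Gbp2 at chr2:248276795-248293784 to Gbp1 at chr2:248343334-248423402, all on the plus strand, the run spans 245 kb and includes LOC685067. On chromosome 10, Irgm at chr10:34213885-34221968 (minus strand) and Ifi47 at chr10:34277993-34285623 (plus strand) lie within 71.7 kb. Igtp at chr10:43631089-43639044 (plus strand) lies between LOC102555634 and Irgm2 within 39.1 kb.

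Several relatives of the members were higher too. Of 24 further GBP, IRG and atlastin rows, chosen by name and description, 13 were tested and 5 were called higher and none lower, against 1.48% and 0.135% of all genes tested. Irgm2, the remaining regulatory IRG, had 184, 190.5 and 179 normalized counts in si-NC and 1937, 2228 and 2096 in si-GPD1L. Its mean of 80.8 TPM in si-GPD1L was the highest of these families, but its range overlapped that of the atlastin Atl3 (mean 75.8 TPM). The log2 fold change of Irgm2 was 3.50 (SE 0.087, adjusted p-value 7.06e-11 in edgeR's quasi-likelihood test). LOC685067, which RefSeq names Gbp7, went from 34.6 to 547 normalized counts (log2 fold change 3.98, adjusted p-value 2.32e-09 in the same test). LOC102555634, an Igtp-like gene, had 1, 2 and 2 counts in si-NC and 52, 125 and 91 in si-GPD1L, and passed the filter only through si-GPD1L. On chromosome 18, MGC108823 went from 30.9 to 241 normalized counts (log2 fold change 2.95, adjusted p-value 8.93e-07) and RGD1309362 from 24.8 to 53.0 (1.09, adjusted p-value 0.0127, but 0.0605 without si-GPD1L replicate 2). These families hold near-identical copies, and how reads shared by copies were counted is not given in the sources used here, so the split between copies is uncertain.

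The Gbp6-like rows on chromosome 14 were not called. LOC102554096 was the highest of them, with 468, 328 and 344 normalized counts in si-NC and 491, 516 and 437 in si-GPD1L. Its groups overlapped and its log2 fold change was 0.34 (SE 0.13, 95% confidence interval 0.058 to 0.62, adjusted p-value 0.144 in edgeR's quasi-likelihood test), with an adjusted p-value of 0.00114 without si-NC replicate 1. LOC100359633 (0.24, adjusted p-value 0.368) and LOC102554737 (0.10, adjusted p-value 0.893) also missed the threshold. Irgc, an IRG best known from testis, had 18.4 and 18.1 normalized counts in the means of si-NC and si-GPD1L, and Irgq, a quasi-GTPase, had 747 and 784.

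The atlastins, constitutive relatives of GBPs that fuse tubules of the endoplasmic reticulum, stayed under the fold threshold. Atl3 had a log2 fold change of 0.25 (adjusted p-value 0.0499 in edgeR's quasi-likelihood test), a call at the edge of the threshold that was lost in 8 of 13 alternative settings. Atl2 had -0.08 (adjusted p-value 0.640) and Atl1 0.17 (adjusted p-value 0.739). The remaining 11 rows were not tested because they had at most 13 counts in any library. Gbp3 was among them, with 1, 0 and 0 counts in si-NC and 2, 1 and 2 in si-GPD1L, so that a change in it was not detectable at this depth.

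**Figure D4:**
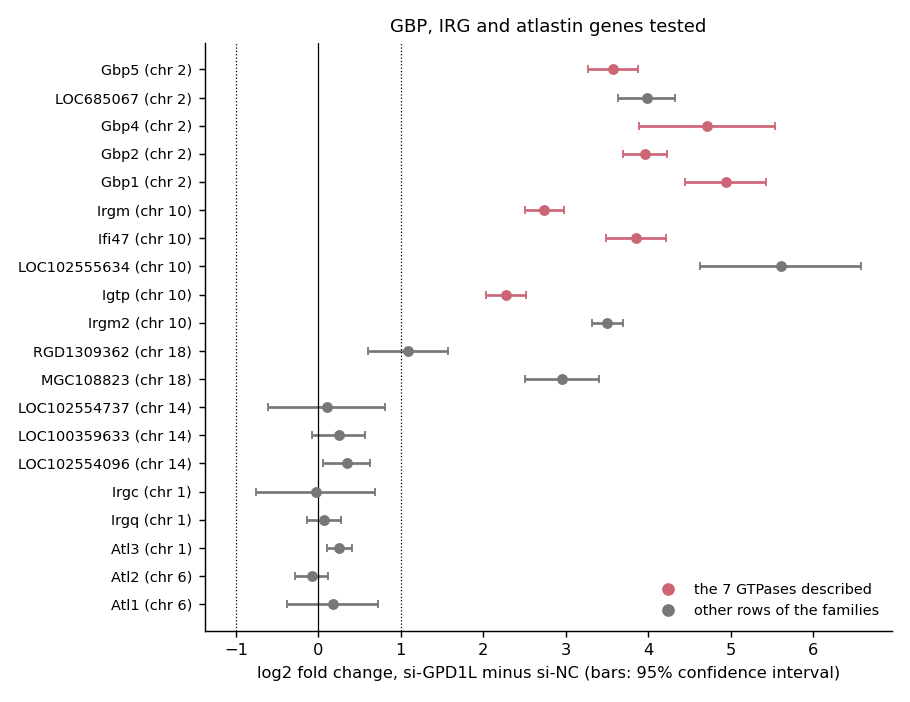
Log2 fold change of si-GPD1L over si-NC for the 7 members and the 13 other GBP, IRG and atlastin rows tested, with 95% confidence intervals. The members lie between 2.27 and 4.94, while the chromosome 14 rows, Irgc, Irgq and the atlastins lie near 0.

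Transcripts of the members gave the same picture as the genes. All 13 annotated transcripts of the 7 genes were tested and were past both thresholds, with log2 fold changes from 2.25 to 5.06, against 1.12% of 37822 transcripts called higher. Those of Gbp1 and Gbp4 passed the filter on low counts only with their si-GPD1L counts. Reads shared by isoforms were counted for more than one of them, so the transcripts of a gene are not separate evidence. For Irgm, the transcript of 2209 bases held 91.8% to 95.6% of the gene's count across si-NC and 98.4% to 99.7% across si-GPD1L. The counts outside it were 8, 8 and 5 in si-NC and 3, 14 and 2 in si-GPD1L, of gene counts of 110, 98 and 113 and of 639, 879 and 664. These counts outside are few and did not rise with the gene, whereas those outside the other Irgm transcripts did, from a sum of 45 to 323 for the transcript of 2270 bases and from 64 to 468 for that of 2129 bases. LOC108352081, annotated as a pseudogene of hnRNP A3, lies inside the interval of Irgm on the opposite strand, at chr10:34215586-34217758. It had 4, 3 and 1 counts in si-NC and 13, 32 and 27 in si-GPD1L (log2 fold change 3.08, SE 0.52, adjusted p-value 0.00361 in edgeR's quasi-likelihood test). Whether the counting used strand is not given in the sources used here, so its reads cannot be told apart from those of Irgm.

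Most genes of other families tested near the members did not pass the test. Within 0.5 Mb of a member, 91 other rows were listed and 24 were tested, with a median log2 fold change of -0.06. At an adjusted p-value under 0.05, 3 were higher and none lower, against 4.03% and 2.33% of all genes tested, and 5 were past the threshold without si-NC replicate 3. LOC108352081 was one of the 3, and it passed the filter on low counts only with its si-GPD1L counts. LOC102557028, which overlaps Ifi47 on the opposite strand, had 0, 0 and 2 counts in si-NC and 8, 9 and 6 in si-GPD1L, and was not tested. Its reads cannot be told apart from those of Ifi47, as the use of strand in counting is not given. Faxdc2, 104.7 kb from Igtp, went from 451 to 749.7 normalized counts (log2 fold change 0.74, adjusted p-value 0.000197 in edgeR's quasi-likelihood test). Galnt10, 422 kb from Igtp, had a log2 fold change of 0.56 (adjusted p-value 0.0309), a call lost without si-GPD1L replicate 1 or 2 or si-NC replicate 2. Both genes stand far from the member, and their changes were smaller than that of any member.

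**Figure D5:**
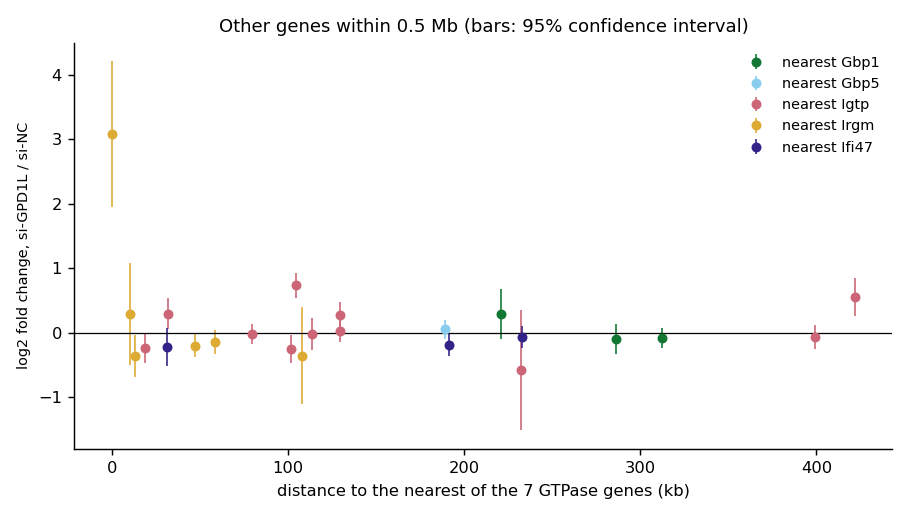
Log2 fold change (with 95% confidence interval) of the 24 tested genes of other families within 0.5 Mb of a member, by distance in kb to the nearest member, which sets the colour. Most lie near 0, with a median of -0.06, and LOC108352081, inside the interval of Irgm, is highest at 3.08.

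Genes of interferon signalling were followed as a list of 24, of which 21 were tested. The list holds ligands, receptors, kinases and transcription factors, and also 3 inhibitors of the pathway. At an adjusted p-value under 0.05, 10 were higher and none lower, where 6.36% of all genes tested passed in either direction, and 8 of the 10 were past the fold threshold too. Both counts include 2 inhibitors. They also include Usp18, Nlrc5 and Batf2, which passed the filter on low counts only with their si-GPD1L counts. The place of these genes among those tested presupposes a high si-GPD1L level. The ligand genes Ifng and Ifnb1 had 0 counts in all 6 libraries, where a count of 0 allows up to 3 counts in a library. Of the 4 receptor genes only Ifngr1, the ligand-binding chain of the interferon-gamma receptor, passed the test, from 2190 to 2741 normalized counts (log2 fold change 0.32, adjusted p-value 0.0113 in edgeR's quasi-likelihood test). That call was lost without si-GPD1L replicate 1 (adjusted p-value 0.0745) or replicate 2 (0.0987). None of the 3 kinase genes passed, and Jak1 had -0.06 (adjusted p-value 0.669).

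Transcription factor genes made up most of the list's change, with 7 of 11 tested higher. Stat2, a signal transducer of type I interferons, had 974, 979.8 and 936 normalized counts in si-NC and 4034, 4748 and 4351 in si-GPD1L, without overlap (log2 fold change 2.18, SE 0.079, adjusted p-value 8.77e-10 in edgeR's quasi-likelihood test). Irf9, a DNA-binding factor of the ISRE, went from 462 to 1616 (1.81, adjusted p-value 5.17e-09). Irf1, the factor best known for induction of GBPs by interferon-gamma, changed less, from 361 ± 25.9 to 546 ± 32.7 (SD, n = 3 each), a log2 fold change of 0.60 (adjusted p-value 0.00201). Irf7, an amplifier of type I interferon genes, went from 69.6 to 4082 (5.87, adjusted p-value 1.14e-10). Nlrc5, the transactivator of MHC class I genes, went from 10.4 to 129 (3.62, adjusted p-value 1.34e-06). Stat3 had -0.03 (adjusted p-value 0.871), a sign that turned when si-GPD1L replicate 1 or si-NC replicate 3 was left out. Of the 3 inhibitor genes, Usp18, which blocks the type I interferon receptor, was higher with a log2 fold change of 8.37 (adjusted p-value 1.73e-10), and Socs1, a Janus kinase inhibitor, with 1.85 (adjusted p-value 0.00118).

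Partners of GBPs and IRGs at membranes were followed as a list of 39, of which 36 were tested, and 5 were higher and 3 lower at an adjusted p-value under 0.05, against 4.03% and 2.33% of all genes tested. These 8 fell to 4 without si-GPD1L replicate 1 or 2 and to 5 without si-GPD1L replicate 3. Of 7 inflammasome genes tested, Aim2, a sensor of cytosolic DNA that acts downstream of GBPs in bacterial infection, went from 3.40 to 97.4 normalized counts (log2 fold change 4.81, adjusted p-value 6.90e-07 in edgeR's quasi-likelihood test). Aim2 passed the filter on low counts only with its si-GPD1L counts. Gsdmd, the pore-forming gasdermin D, had 0.40 (adjusted p-value 0.0254) and lost its call without si-GPD1L replicate 1 or 2. Of 6 genes of damage sensors and ubiquitin ligases, 3 were higher: Lgals9, a galectin (2.35, adjusted p-value 3.64e-09), Rnf213, a giant ligase that ubiquitylates bacterial lipopolysaccharide (2.36, adjusted p-value 6.89e-07), and Trim21, a cytosolic antibody receptor and ligase (1.76, adjusted p-value 8.09e-06).

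Autophagy genes, whose ATG8-family products steer IRGs and GBPs to vacuoles, were not higher in any of 16 tested. Map1lc3b (-0.33, adjusted p-value 0.0127), Gabarapl1 (-0.31, adjusted p-value 0.0284) and Gabarapl2 (-0.31, adjusted p-value 0.0494) were lower in edgeR's quasi-likelihood test, and each lost its call when any si-GPD1L library was left out, as did both Gabarapl genes without si-NC replicate 2. Tax1bp1, an autophagy receptor gene, had -0.15 (adjusted p-value 0.264). None of 7 prenylation genes, which serve the lipid anchors of Gbp2 and Gbp5, passed the test, and Arhgdia had 0.04 (adjusted p-value 0.815). Macrophage markers, from a cell type rich in these GTPases, summed to 266 to 299 TPM across si-NC and 243 to 347 across si-GPD1L, with none of 13 past the threshold. T and NK cell markers summed to 2.45 to 3.09 TPM across si-NC and 2.15 to 3.01 across si-GPD1L, and Cd3d, Cd3e, Nkg7 and Klrb1 were at 0 counts in every library.

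Outside the families, the 5 genes whose profile over the 6 libraries was most like the members' mean profile were chosen from 11022 named genes with at least 50 normalized counts on average, by the root mean square difference of centred log2 values. Herc6, the ubiquitin ligase gene most like it, differed by 0.113 and had a log2 fold change of 3.70. RT1-S3 (0.181) and RT1-T24-3 (0.200), both MHC class I genes of the rat, came next, followed by Nlrc5 (0.223) and Ifi44 (0.250). The members themselves differed from their mean profile by 0.112 (Gbp5) to 0.727 (Igtp). Igtp and Irgm (0.489) departed from it by a smaller rise and Gbp1 (0.611) and Gbp4 (0.567) by a larger one.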

How the data were processed

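The 6 mRNA-seq libraries of atrial fibroblasts were used. The authors deposited raw read counts per gene and per transcript, and TPM per gene (counts divided by length and scaled to a fixed total). The submitters' processing notes name bcl2fastq, HISAT2 2.1.0, HTSeq 0.12.4 and the build rn6. Strand setting and handling of multi-mapping reads are not given in the sources used here. The authors' own comparison tables (fold changes, p-values, q-values) and their GO and KEGG tables were not used, nor were 6 per-sample columns of transcript TPM.

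Groups and replicate numbers came from the sample labels. Counts were filtered by filterByExpr, normalized by TMM and compared by the quasi-likelihood test of edgeR 4.0.16 in R 4.3.3, with Benjamini-Hochberg adjustment over 14852 genes. Genes of few si-NC counts, such as Gbp1, Gbp4, LOC102555634, LOC108352081, RGD1305184, Nlrc5, Usp18, Batf2 and Aim2, passed this filter only with their si-GPD1L counts. A gene was called at an adjusted p-value under 0.05 together with a log2 fold change beyond 1 in either direction, and 240 genes passed (220 higher, 20 lower). Standard errors were computed from the fold change and the F statistic. TPM values were used for levels between genes and were not tested. In simulated data with 200 changed genes, 198 were recovered among 14668 genes tested, with 10 false calls. Both counts used an adjusted p-value under 0.05 alone, without the fold threshold. The simulation gave every gene the same dispersion and changed no gene of few counts, so it does not cover genes such as Gbp4. The chi-square of counts between libraries of one group was 4.12 to 29.9 per degree of freedom, above sampling noise. That does not show that the libraries came from separate cultures, and each was counted as its own sample.

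The members, gene lists and rules were chosen with earlier results of these data known. The genes named were the 7 members, every tested family row, Gpd1l, Irf1, Irf9 and Nlrc5, up to 4 genes of each list with the smallest adjusted p-value and up to 2 of the highest mean that did not pass, up to 4 neighbours that passed, and the 5 most similar profiles. A gene that met the rule is not reported here. Names outside this rule were chosen after their values were seen (the markers, Gbp3, Ifng, Ifnb1, Ifngr1, Socs1, Batf2, Gsdmd, Map1lc3b, Gabarapl1, Gabarapl2 and the genes under other observations). Alternatives were DESeq2 1.42.0 size factors and Wald test, upper-quartile normalization, edgeR's exact test, other filters and thresholds, a block for the replicate number, fits without 1 library at a time, and the transcript table. Drawing used matplotlib 3.10.9.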

Additional observations from a re-analysis of the deposited data

How the results depend on the processing

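All 7 members kept their direction and their side of both thresholds in every alternative that tested them, with a largest adjusted p-value of 0.000101. Where every library had to hold 10 counts or more, Gbp1 and Gbp4 were not tested, and 5 of 5 were called. The fold of Gbp4 was the least fixed (log2 fold change 4.48 to 5.26). Of all genes, 945 passed the adjusted p-value alone. The count of lower genes was 10 under that filter, 38 under edgeR's exact test and 40 without a filter. It was 6 to 28 when each library was left out, with 6 without si-GPD1L replicate 1 and 8 without replicate 2. Neighbours past the threshold were 6 without a filter and 2 to 5 when each library was left out, and partner genes 4 to 11. The sign turned when a library was left out for Irgc (-0.18 to 0.15), Irgq (-0.023 to 0.15), LOC102554737 (-0.17 to 0.30), Stat3 (-0.10 to 0.028) and Arhgdia (-0.0059 to 0.062), none of them called with all libraries. The cause was not tested. Replicate numbers did not pair the libraries (correlations of deviations -0.0116, -0.00586 and 0.0434). With the replicate number as a block, 223 genes passed both thresholds, the members stayed at 7 and the family rows at 12, and Atl3 (adjusted p-value 0.0642) and Gabarapl2 (0.0521) lost their calls. Counting error limits genes of few counts, such as Gbp4 and Gbp3.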

Other observations

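The IRG-like genes of chromosome 18 held further relatives that the search by name had missed, chosen here after their values were seen. MGC105567, which RefSeq names Ifgga2l2, an interferon-gamma-inducible GTPase, had 21.7, 14.8 and 17.6 normalized counts in si-NC and 149, 174 and 119.8 in si-GPD1L, without overlap. Its log2 fold change was 3.02 (adjusted p-value 1.87e-06 in edgeR's quasi-likelihood test). RGD1305184, named Ifgga4l in RefSeq, had 6, 0 and 2 counts in si-NC and 32, 36 and 35 in si-GPD1L (log2 fold change 3.61, adjusted p-value 0.00124). It passed the filter on low counts only with its si-GPD1L counts.

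The arrangement of GAS letters and ISRE letters with 2 bases between them, seen in Igtp and Irgm, was noticed after the sequences were read. It stood in 7 of 33469 RefSeq promoters (0.0209%), those of Igtp, Irgm, Irgm2, MGC105567, Parp14, Stra8 and LOC134480693. Irgm2 carries it as follows, with both motifs in capitals:
Irgm2, chr10:42889853-42889881, plus strand: cggtTTCTAGGAAccGAAACTGAAAgctg

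Of the 6 such genes tested, 5 were called higher in si-GPD1L, against 1.48% of all genes tested. These 5 include Igtp and Irgm, in which the arrangement was noticed and which were known to be called. They also include Irgm2 and MGC105567, relatives whose rise was already known. The share of 5 of 6 is therefore no separate evidence. Parp14, a poly-ADP-ribose polymerase family gene, had a log2 fold change of 2.49 (adjusted p-value 4.54e-10 in edgeR's quasi-likelihood test), while Stra8, a gene of germ cell meiosis, had 0.53 (adjusted p-value 0.492). These counts describe letters and calls and were not tested against each other.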
